A study of Mus musculus with 4 samples.

Results

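The collagens, laminins and integrins of mouse neurospheres, with 10 further matrix genes (Fn1, Tnc, Vcan, Ncan, Bcan, Hspg2, Nid1, Nid2, Sparc and Agrn), were compared between an E2f4 knockout and a wild-type sample. Members were taken by gene symbol, from every Affymetrix probe set annotated with a single symbol. The set of symbols was chosen with earlier results of these data known. This gave 88 of the 18193 genes with a single-symbol probe set, read by 190 probe sets, of which 135 were on the MOE430A array and 55 on the MOE430B array. There were 42 collagen chains, 10 laminin chains, 23 integrin subunits and the 10 further matrix genes. The symbol patterns also took in 3 proteins named for binding integrins, Itgb1bp1, Itgb1bp2 and Itgb3bp, which are kept apart below.

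Neurospheres are free-floating spheres that neural stem cells and their progeny form in culture, here grown from the forebrain, labelled ventral telencephalon, of embryos at E12.5. There was 1 RNA sample labelled as E2f4 knockout and 1 labelled as wild type, and each was hybridised to 1 MOE430A and 1 MOE430B array, 4 arrays in all. The kind of E2f4 allele, the strain, the sex and number of embryos and the passage of the cultures are not given in the sources used here. Since each genotype has a single sample, nothing can be tested across samples, and the values below describe these 2 samples and carry no p-value, and a difference between them is not shown to come from the genotype.

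The extracellular matrix of the early forebrain is mostly a basement membrane at the pial surface and around vessels, and a proteoglycan matrix between the cells. Collagen IV and laminin each form a sheet, nidogens, perlecan and agrin tie the sheets together, and lecticans bind hyaluronan between cells. Integrins are receptors made of 1 alpha and 1 beta subunit that hold cells to these proteins, and in neural stem cells the laminin receptor made of Itga6 and Itgb1 is well known. E2F4, the product of the gene knocked out, is a transcription factor best known for repressing cell-cycle genes together with pocket proteins.

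Signals are MAS5 values on a linear scale. Within each array design the knockout signal was divided by the wild-type signal, and the log2 of this ratio was centred on its median. A probe set was taken as measured if knockout and wild type both reached a floor, the median signal of its design, 735 on MOE430A and 942 on MOE430B, and the value of a gene was the mean log2 ratio over its measured probe sets. The arrays of a design were alike in scale, with median signals of 736 in the knockout and 735 in the wild type on MOE430A, and 942 in the knockout and 941 in the wild type on MOE430B. E2f4 itself, read by 1 probe set, had a signal of 1535 in the knockout and 1812 in the wild type, a log2 ratio of -0.24, and where this probe set lies relative to the deleted part is not given, so it does not check the label. Xist, which is transcribed from the inactive X chromosome of female cells, read 1178 in the knockout and 8980 in the wild type on its measured probe set. The part of embryo sex in the values below was not tested.

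Of the 88 genes, 35 were measured, 13 reached the floor in 1 sample alone and 40 stayed below it on every probe set in both samples. No measured member differed by 2-fold: 0 of 35 were at least 2-fold higher, against 0.531% of all 10174 measured genes, and 0 of 35 were at least 2-fold lower, against 0.482%. The share differed by design. With MOE430A read by itself, 28 members were measured and 0 were past 2-fold either way, against 0.17% of all genes higher and 0.139% lower. With MOE430B read by itself, 11 were measured and 0 were past 2-fold, against 1.05% higher and 1.03% lower. The 4 members measured on both designs are in both counts. These counts rest on the floor, and with none 10 members, or 11.4%, read at least 2-fold higher, against 8.99% of all genes, and 7, or 7.95%, read at least 2-fold lower, against 8.5%. At a smaller fold of 1.5, 1 of 35 was higher, Col22a1, against 3.52% of all measured genes, and 3 of 35 were lower, Itga5, Col6a4 and Col9a1, against 3.86%. The 35 genes split into 17 higher and 18 lower in the knockout, with a median log2 ratio of -0.02, beside a median of -0.001 and 49.8% higher among all measured genes. The median size of a log2 ratio, regardless of sign, was 0.17 among the members and 0.18 among all measured genes. Within each design it was larger among the members, at 0.21 against 0.16 on MOE430A and 0.26 against 0.24 on MOE430B. In RNA from whole cultures, fewer cells of a type and less RNA per cell cannot be told apart.

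**Figure D1:**
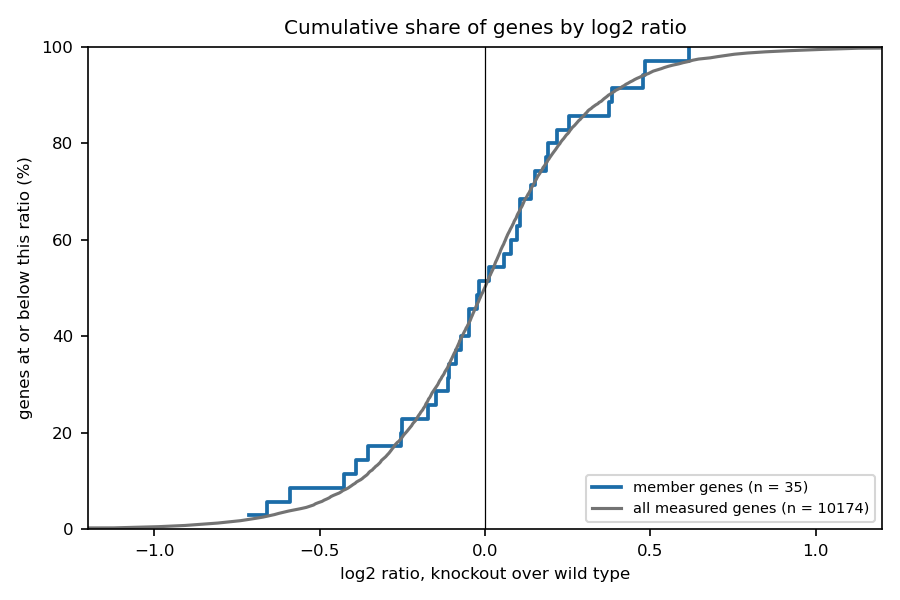
The cumulative percentage of genes (y axis) at or below each knockout over wild-type log2 ratio (x axis), for the 35 measured member genes (blue steps) and all 10174 measured genes (grey line). The steps follow the grey line closely, with medians of -0.02 and -0.001, and all member ratios lie between -0.71 and 0.62.

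The individual signals give the same picture. Probe sets that were bright in both samples lay near equality, and the 50 measured ones had a median log2 ratio of 0.21 in size. The 122 member probe sets below the floor in both samples scattered far more, with a median size of 0.56, and 42 of them, or 34.4%, read at least 2-fold apart. Among all single-symbol probe sets below the floor the share was 35.4%, so no ratio is read from dim members.

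**Figure D2:**
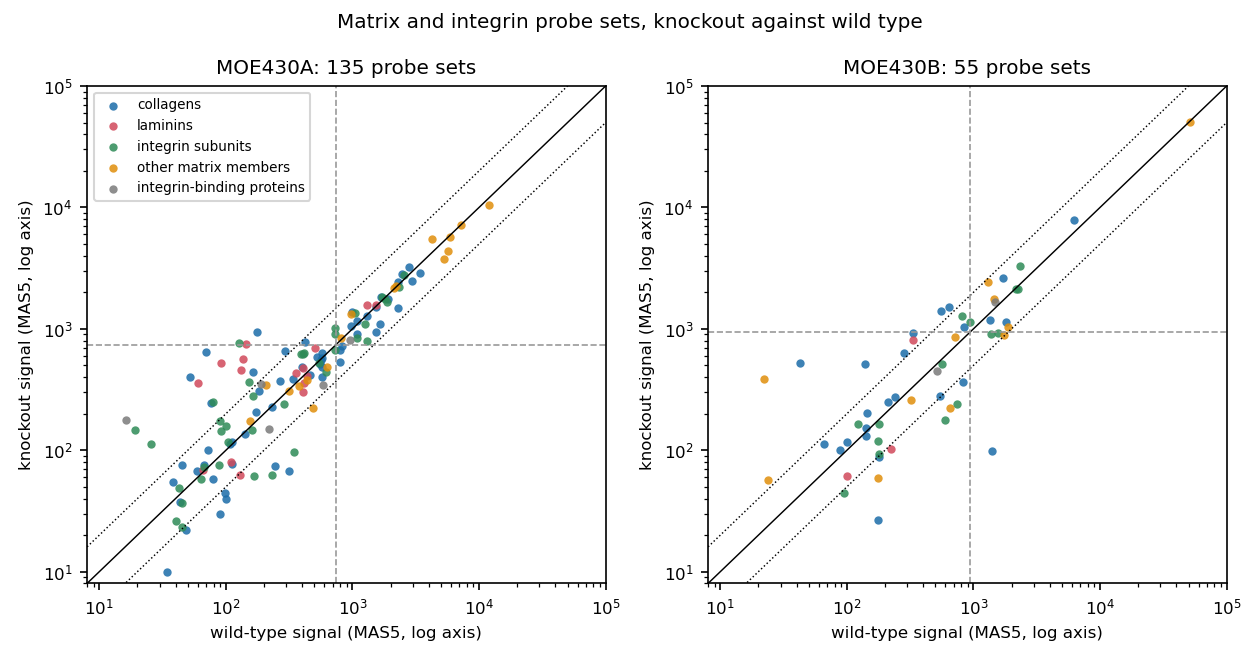
The signal of each member probe set in the knockout (y axis) against the wild type (x axis), MAS5 units on log axes, with 135 probe sets on MOE430A (left) and 55 on MOE430B (right), coloured by family. The solid line marks equal signals, the dotted lines 2-fold differences and the dashed lines the floor of the design (735 and 942); all 50 probe sets above both dashed lines lie between the dotted lines.

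Fibrillar collagens, the chains of rope-like fibres of connective tissue and cartilage, were measured for 6 of 11 genes, of which 5 were higher and 1 lower in the knockout, with a median log2 ratio of 0.12. Col11a1, a minor chain of cartilage fibrils, was farthest from 0, with a signal of 1382 in the knockout and 990 in the wild type, a log2 ratio of 0.48. Its other probe set stayed dim in the knockout and the wild type. Col2a1, the main cartilage collagen, which is also made outside cartilage in the embryo, had a signal of 3246 in the knockout and 2795 in the wild type, a log2 ratio of 0.22. Both genes were higher by less than 1.5-fold.

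Col5a1 and Col5a2, which set fibril diameter, stayed close to equal. Col5a1 read 1276 and 1509 on its measured probe sets in the knockout, against 1305 and 1522 in the wild type, and its log2 ratio was -0.02. Col5a2 read 1838 in the knockout and 1673 in the wild type, a log2 ratio of 0.14. Col27a1, a fibrillar collagen of cartilage, had a signal of 7946 in the knockout and 6254 in the wild type on one probe set and of 1193 in the knockout and 1360 in the wild type on the other. These lay on opposite sides of 0, at 0.35 and -0.19, so its mean of 0.08 has no agreed direction. Col1a2 was at 0.10, from 1045 in the knockout and 974 in the wild type, on 1 of 3 probe sets.

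Col1a1, the partner chain of Col1a2 in type I collagen, and Col3a1 were dim. Both probe sets of Col1a1 were below the floor, with signals of 38 and 509 in the knockout and 43 and 552 in the wild type, and both of Col3a1 were too, with 399 and 246 in the knockout and 572 and 76 in the wild type. Both genes are strongly made by fibroblasts, and no ratio was read for either.

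Type IV collagen, the sheet of every basement membrane, is built in most tissues from Col4a1 and Col4a2, whose genes lie head to head and share a promoter region. Their windows of 250 bases before to 50 bases after the gene start (RefSeq, GRCm38.p6) are shown because the 2 genes start within 1 shared stretch of DNA. The Col4a1 window is chr8:11312777-11313076 on the minus strand and the Col4a2 window chr8:11312555-11312854 on the plus strand, and the annotated starts are 21 bases apart. Capitals mark the 78 bases that both windows hold, on opposite strands.
Col4a1: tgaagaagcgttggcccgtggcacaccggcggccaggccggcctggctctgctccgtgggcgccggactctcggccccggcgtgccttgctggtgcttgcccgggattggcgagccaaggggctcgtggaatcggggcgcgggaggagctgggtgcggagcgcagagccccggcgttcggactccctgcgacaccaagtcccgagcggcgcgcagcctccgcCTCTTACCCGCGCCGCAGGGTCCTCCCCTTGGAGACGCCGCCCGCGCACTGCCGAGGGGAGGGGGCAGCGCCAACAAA
Col4a2: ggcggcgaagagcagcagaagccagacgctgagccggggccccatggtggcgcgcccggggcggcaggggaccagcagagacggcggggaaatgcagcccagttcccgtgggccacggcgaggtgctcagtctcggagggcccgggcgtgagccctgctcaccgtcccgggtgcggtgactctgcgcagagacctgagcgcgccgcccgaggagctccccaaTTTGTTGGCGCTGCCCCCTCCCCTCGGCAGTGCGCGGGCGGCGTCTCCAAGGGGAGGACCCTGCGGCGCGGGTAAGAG

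The signals of both chains were close to equal between the samples. Col4a2 read 2808 in the knockout and 2475 in the wild type, a log2 ratio of 0.19. Col4a1 read 2899 and 2413 in the knockout, against 3445 and 2301 in the wild type, with probe sets at -0.25 and 0.07 and a mean of -0.09. The third measured chain, Col4a5, which is best known from the kidney filter and is X-linked, read 901 in the knockout and 1078 in the wild type, a log2 ratio of -0.26. Col4a3 and Col4a4 were below the floor in both samples, and Col4a6 reached it only in the wild type, with 534 in the knockout and 804 in the wild type, at least 1.09-fold lower.

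The other collagens spread most widely, with 6 of 25 measured, 2 higher and 4 lower, and a median log2 ratio of -0.41. Col22a1, a collagen of tissue junctions such as that of muscle and tendon, read 2638 in the knockout and 1722 in the wild type, 1.53-fold higher, and was the highest measured member. Its other probe sets, on MOE430A, were below the floor. On the lower side, Col6a4, a chain related to collagen VI, read 1145 in the knockout and 1811 in the wild type, 1.58-fold lower. Its second probe set went the other way while still below the floor, at 919 in the knockout and 334 in the wild type.

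Col9a1 likewise rested on disagreeing readings. This collagen coats collagen II fibrils, and its measured probe set read 1087 in the knockout and 1640 in the wild type, a log2 ratio of -0.59. The other probe set reached the floor in the knockout alone, at 776 in the knockout and 421 in the wild type. Col9a1 and Col6a4 therefore have no direction on which their probe sets agreed.

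Col6a2, a chain of the beaded collagen VI filaments, and Col18a1, a basement membrane collagen whose tail is released as endostatin, were lower on each measured probe set. Col6a2 read 1483 and 2499 in the knockout, against 2297 and 2930 in the wild type, with log2 ratios of -0.63 and -0.23. Col18a1 read 945 and 1769 in the knockout, against 1522 and 1899 in the wild type, with log2 ratios of -0.68 and -0.10. Within each gene the 2 readings differed by more than the smaller of the log2 ratios. Col25a1, a membrane-bound collagen of neurons, was at 0.10, with 1164 in the knockout and 1091 in the wild type.

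Laminins are trimers of an alpha, a beta and a gamma chain. Of 10 chains, 2 were measured, both slightly higher in the knockout, and 8 were below the floor in both samples. Lamc1, the gamma chain of most laminins, read 1560 in the knockout and 1311 in the wild type, a log2 ratio of 0.25. Lama5, an alpha chain of epithelial and vessel basement membranes, read 1580 in the knockout and 1523 in the wild type, a log2 ratio of 0.06. On a second probe set Lama5 reached the floor in the knockout alone, at 753 in the knockout and 144 in the wild type, at least 1.02-fold higher. No beta chain was measured: the signals of Lamb1, Lamb2 and Lamb3 ran from 63 to 814 in the knockout and from 61 to 416 in the wild type.

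Of the proteins that link the basement membrane, Hspg2 and Agrn were measured and Nid1 and Nid2 were below the floor in both samples. Hspg2, the gene of perlecan, read 7104 and 836 in the knockout, against 7215 and 813 in the wild type, and its log2 ratio of 0.01 was the closest to 0 of all measured members. Agrn, the gene of agrin, which clusters receptors at synapses, read 4382 in the knockout and 5636 in the wild type on MOE430A. On MOE430B it read 1750 in the knockout and 1459 in the wild type, so the designs gave -0.36 and 0.26 and the mean was -0.05.

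Fibronectin, the adhesion protein of provisional matrix, was higher in the knockout. Fn1 read 5515 in the knockout and 4240 in the wild type, a log2 ratio of 0.38 or 1.30-fold, and its other probe set was below the floor at 223 in the knockout and 485 in the wild type. Tnc, the gene of tenascin-C, a glycoprotein of the neural stem cell niche, was below the floor on both probe sets in both samples. Sparc, a secreted modulator of matrix assembly, was the member whose measured probe sets lay farthest apart. It read 3784, 2185 and 2420 in the knockout, against 5258, 2143 and 1300 in the wild type, with log2 ratios of -0.47, 0.03 and 0.90 and a mean of 0.15.

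Lecticans, the hyaluronan-binding proteoglycans of brain matrix, were close to equal where measured. Ncan, the gene of neurocan, read 10436 in the knockout and 12025 in the wild type on MOE430A, and 50790 in the knockout and 51324 in the wild type on MOE430B. Both log2 ratios were slightly below 0, at -0.20 and -0.01. Vcan, the gene of versican, had 4 measured probe sets of 8, which read 5664, 2267, 1316 and 1036 in the knockout, against 5890, 2220, 976 and 1888 in the wild type. The brighter 2 lay near 0, the next at 0.43 and the one on MOE430B at -0.86, which leaves a mean of -0.11 with no agreed direction. Bcan, the gene of brevican, passed the floor only in the wild type, with 888 in the knockout and 1747 in the wild type, at least 1.86-fold lower, and its other probe set passed it in neither.

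**Figure D3:**
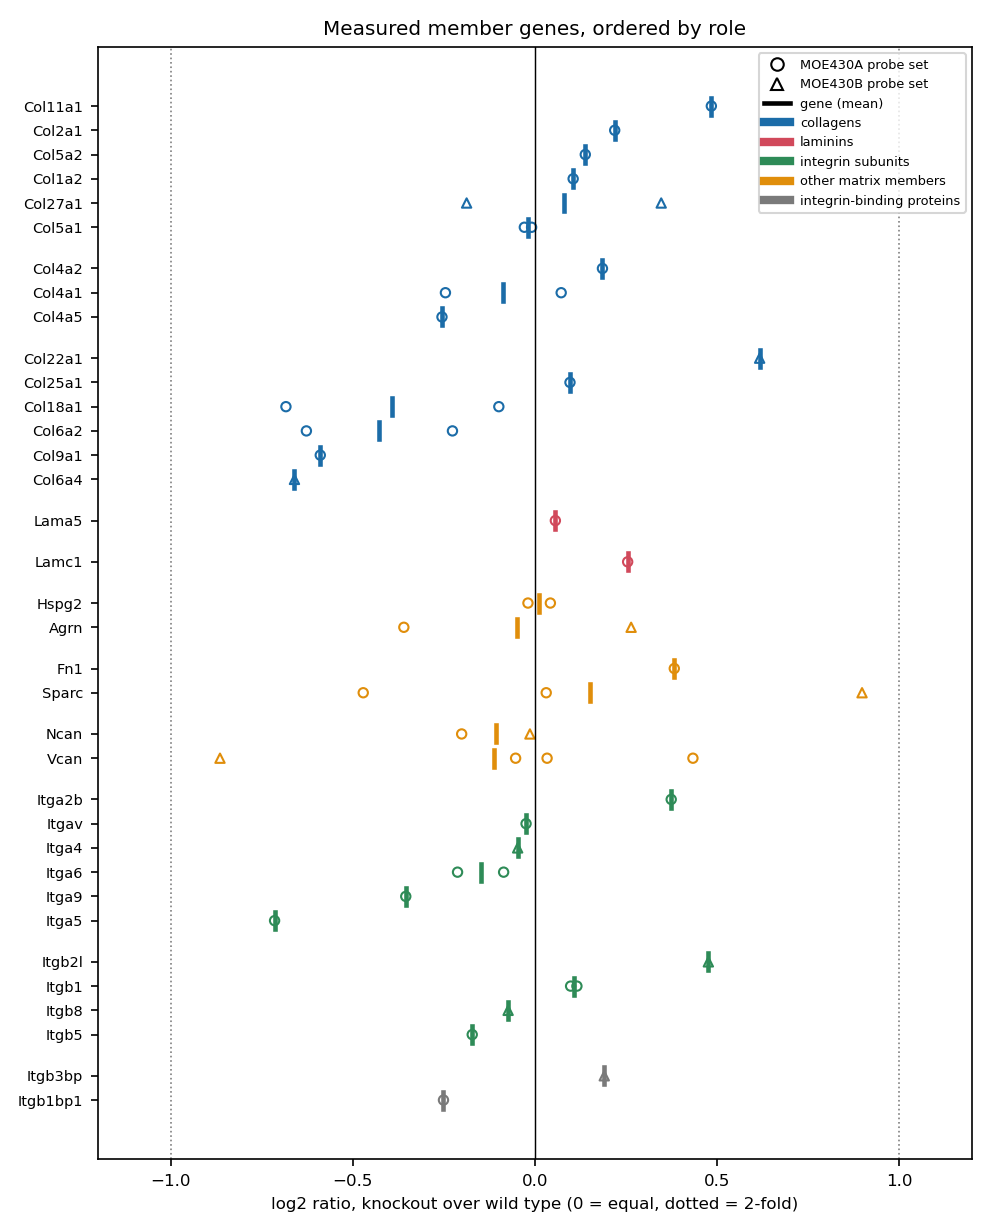
Knockout over wild-type log2 ratios (x axis) for the 35 measured member genes, ordered by role from collagens at the top to integrin-binding proteins at the bottom. Circles are MOE430A and triangles MOE430B probe sets, and the thick bar is the gene's mean; all bars lie between the dotted 2-fold lines, from Itga5 at -0.71 to Col22a1 at 0.62, and the readings of Sparc and Vcan spread widest.

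Integrin alpha subunits decide which matrix protein a receptor binds. Of 14, 6 were measured, with 1 higher and 5 lower in the knockout and a median log2 ratio of -0.10. Itga5, the fibronectin-binding subunit, was the lowest measured member of all, with a signal of 787 in the knockout and 1295 in the wild type, 1.64-fold lower. It rested on 1 of 4 probe sets, and the signal of the knockout was just above the floor of 735. The other 3 probe sets were below the floor in both samples, at 116, 118 and 241 in the knockout and 104, 176 and 739 in the wild type. Its ligand Fn1 lay on the other side of 0, at 0.38.

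The promoter window of Itga5 (RefSeq, GRCm38.p6, chr15:103366742-103367041, minus strand) is shown because it belongs to the lowest member. Capitals mark GGGCGG or its reverse complement, the core of the site of the general activator SP1, of which there were 2, and no E2F word was found in it.
Itga5: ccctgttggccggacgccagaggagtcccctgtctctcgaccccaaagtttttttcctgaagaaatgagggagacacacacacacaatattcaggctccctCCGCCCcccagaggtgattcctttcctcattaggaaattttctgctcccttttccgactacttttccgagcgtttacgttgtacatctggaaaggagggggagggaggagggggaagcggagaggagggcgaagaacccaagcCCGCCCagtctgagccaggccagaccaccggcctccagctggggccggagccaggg

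E2F words, searched on both strands as TTTCCCGC, TTTCGCGC, TTTGCCGC and TTTGGCGC, were found in 1 of 73 promoter windows of the 65 members with an entry, or 1.37%, against 2.26% of all 32851 windows. The 1 window was that of Col17a1, an epithelial adhesion collagen that was below the floor in both samples. TTTGAA, the core of the cell-cycle element CHR, was in 13.7% of the member windows and 17.9% of all windows, and GGGCGG was in 57.5% and 35.7%. A match to these letters is a description of the window and not of binding.

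Itga6, the laminin-binding subunit of neural stem cells, was nearly equal, with 2195 and 1090 in the knockout, against 2335 and 1266 in the wild type, and log2 ratios of -0.09 and -0.21. Itga9, which binds tenascin-C, read 844 in the knockout and 1082 in the wild type, a log2 ratio of -0.35. Itgav, the partner of several beta subunits, read 1758 in the knockout and 1792 in the wild type, and Itga4 read 2109 in the knockout and 2182 in the wild type, so that both lay within 0.05 of equality at -0.02 and -0.05. Itgav and Itga4 were each measured on 1 of 5 probe sets. Itga2b, the platelet integrin, was the 1 alpha subunit higher in the knockout, at 1362 in the knockout and 1053 in the wild type, a log2 ratio of 0.37.

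A further 5 alpha subunits reached the floor in 1 sample alone. Itga8, a receptor for nephronectin and fibronectin, read 1268 in the knockout and 815 in the wild type, at least 1.35-fold higher. Itga3, which binds laminins, read 1016 in the knockout and 725 in the wild type, at least 1.38-fold higher, and Itga10, which binds collagens, read 1137 in the knockout and 941 in the wild type, at least 1.21-fold higher. Itgax, an integrin of dendritic cells and macrophages, read 761 in the knockout and 127 in the wild type, at least 1.04-fold higher. Itgae, an integrin of lymphocytes in epithelia, read 915 in the knockout and 1562 in the wild type, at least 1.66-fold lower.

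Of 9 beta subunits, 4 were measured, 2 higher and 2 lower, with a median log2 ratio of 0.02. Itgb1, the shared partner of most matrix-binding alpha subunits, read 2751 and 1841 in the knockout, against 2545 and 1724 in the wild type, and both measured probe sets were slightly higher, at 0.12 and 0.10. It was the 1 member with several measured probe sets that all lay above 0. Itgb8, which with Itgav activates latent TGF-beta in the developing brain, read 2116 in the knockout and 2229 in the wild type, a log2 ratio of -0.07. Itgb5 read 1667 in the knockout and 1883 in the wild type, a log2 ratio of -0.17. On another probe set Itgb5 passed the floor in the knockout alone, at 899 in the knockout and 733 in the wild type, at least 1.22-fold higher.

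Itgb2l, an integrin-beta-like protein known from mouse neutrophils, read 3263 in the knockout and 2348 in the wild type on 1 probe set, a log2 ratio of 0.48. A second probe set of it passed the floor only in the wild type, with 911 in the knockout and 1368 in the wild type, so its readings disagreed. The other 5 beta subunits, Itgb2, Itgb3, Itgb4, Itgb6 and Itgb7, were below the floor in both samples. Of the proteins that bind integrins, Itgb1bp1, which binds the Itgb1 tail, was at -0.25, and Itgb3bp, better known as a kinetochore protein, was at 0.19, each on 1 measured probe set.

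Across all members, 11 probe sets reached the floor in the knockout alone and 7 in the wild type alone. None of the 11 had a bound of 2-fold or more, against 5.8% of such probe sets of all genes, and none of the 7 did, against 7.21%. The bounds farthest out were Bcan and Itgae, given above, and Col19a1, a minor collagen of muscle and neurons, at 1522 in the knockout and 635 in the wild type, at least 1.62-fold higher. Col23a1, a membrane collagen, read 1406 in the knockout and 557 in the wild type, at least 1.49-fold higher. Col26a1 read 99 in the knockout and 1411 in the wild type on MOE430B, while its MOE430A probe set, below the floor, read 641 in the knockout and 70 in the wild type.

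Probe sets of 1 gene are repeated readings of the same RNA. How far they differ is not the spread between samples, which is unknown with 1 sample per genotype. Of the 12 members with several measured probe sets, 6 had readings on both sides of 0, 5 had all readings lower and 1 had all higher. Probe sets of the same gene had a pooled SD of 0.41 on the log2 scale among the members and 0.33 among all measured genes, and most member ratios are smaller than this spread. Sparc, Ncan, Vcan and Agrn were the 4 measured on both designs, and Ncan was the 1 with every reading on the same side.

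Genes that work with the members were taken from lists. Single-symbol probe sets existed for 22 of 25 collagen enzymes, 18 of 19 metalloproteinases and inhibitors, and 17 of 20 integrin adaptors and signalling genes. The same held for 12 of 13 hyaluronan and lectican partners. Listed genes without such a probe set were not read. Enzymes of collagen folding, cross-linking and trimming had 11 of 25 measured, 4 higher and 7 lower, with a median log2 ratio of -0.20. This median lay near 0 under other floors. None was past 2-fold, against 0.531% of all measured genes higher and 0.482% lower. Colgalt1, which adds galactose to collagen, was at -0.96, with 946 in the knockout and 1849 in the wild type on 1 of 2 probe sets, and was the partner farthest on the lower side. Its other probe set, below the floor, read 207 in the knockout and 97 in the wild type. Adamts3, which trims procollagen, was at 0.53, while its other probe set passed the floor only in the wild type, at 865 in the knockout and 1226 in the wild type. Plod3, a lysyl hydroxylase, was at -0.46. Metalloproteinases and their inhibitors had 9 of 19 measured, 2 higher and 7 lower, with a median of -0.20. Mmp14, a membrane-bound collagenase, was at -0.45 from probe sets on both sides of 0, Timp1 at -0.27 and Adamts5 at -0.27.

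Integrin adaptors and adhesion signalling genes were evenly split, with 16 of 20 measured, 8 higher and 8 lower, and a median of -0.01. Src, the tyrosine kinase, was at 0.35 from probe sets at 0.73 and -0.03, Crk at -0.28 and Tln2, a talin, at 0.27. Probe sets above the floor in 1 sample alone went the other way for Crk, at 1276 in the knockout and 572 in the wild type, and for Tln2, at 554 in the knockout and 2397 in the wild type. Other matrix receptors had 13 of 18 measured, 5 higher and 8 lower, with a median of -0.04. Cd151, a tetraspanin that sits with laminin-binding integrins, was at 0.53 from 5 probe sets between -0.28 and 1.37, the syndecan Sdc1 at 0.51 and Cd47 at -0.38 from probe sets on both sides of 0. Among hyaluronan and lectican partners, 1 of 6 measured genes was higher and 5 lower, with a median of -0.11, and Hapln4, a link protein of perineuronal nets, was the 1 gene of these lists past 2-fold. It read 2152 in the knockout and 1029 in the wild type on its single probe set, 2.09-fold higher. Of all measured genes, 0.531% were at least 2-fold higher, and with MOE430B alone, the design of this probe set, 1.05% were.

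Markers of the cell types a culture could hold were read beside these values. The summed signals add every probe set of a list on a design, those below the floor included. Neural stem and radial glia markers were measured for 11 of 11 genes, with a median log2 ratio of 0.09 and a summed signal on MOE430A of 171438 in the knockout and 164706 in the wild type. Hes5 at -0.86, Pax6 at 0.44 and Fabp7 at 0.26 lay farthest from 0. The value of Hes5 is a mean of probe sets far apart, at -0.24 and -1.48. Another probe set of Pax6, which passed the floor only in the wild type, read 342 in the knockout and 770 in the wild type. Neuron markers were measured for 10 of 10 genes, with 1 higher and 9 lower, a median of -0.23 and a sum on MOE430A of 132724 in the knockout and 151800 in the wild type. Nefl, Map2 and Stmn3 led them, at -0.45, -0.39 and -0.39.

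Mesenchymal, meningeal and pericyte markers, whose cells make much of the fibrillar collagen of the head, were measured for 4 of 20 genes, all higher, with a median of 0.27. They were Rgs5, Acta2, Abcc9 and Zic1, between 0.08 and 0.29, of which Zic1 is also made by neural progenitors. A second probe set of Rgs5 passed the floor only in the wild type, at 713 in the knockout and 952 in the wild type, and so did 1 of Dcn, at 667 in the knockout and 1232 in the wild type. For Pdgfra, 1 probe set passed it in the knockout alone, at 1002 in the knockout and 658 in the wild type. The summed signal of the list on MOE430A was 22587 in the knockout and 19906 in the wild type, and 14 of its genes, Pdgfrb, Foxc1, Twist1 and Lum among them, were below the floor in both samples. Endothelial markers were measured for 5 of 12 genes, with a median of -0.13, led by Egfl7 and Eng at -0.39 each and Kdr at 0.38, and Pecam1, Cdh5, Tek, Tie1 and Erg were below the floor in both samples. Their summed signal was 10834 in the knockout and 11633 in the wild type on MOE430A, and 2523 in the knockout and 306 in the wild type on MOE430B. The MOE430B sum was mostly 1 probe set of Flt1, a VEGF receptor, at 2226 in the knockout and 244 in the wild type, while the 3 Flt1 probe sets on MOE430A were below the floor in both samples. Emcn passed the floor in the knockout alone on its 1 probe set, at 758 in the knockout and 668 in the wild type. Microglia and macrophage markers were measured for 2 of 10 genes, Laptm5 at -0.63 and Csf1r at -0.25, with a summed signal on MOE430A of 8836 in the knockout and 10165 in the wild type. On MOE430B the order was the opposite, at 1919 in the knockout and 1228 in the wild type, and there a probe set of Laptm5 passed the floor in the knockout alone, at 1178 in the knockout and 883 in the wild type. In all, 7 of the 10, Cx3cr1, Aif1 and Ptprc among them, were below the floor in both samples. The remaining gene, C1qb, passed the floor in the knockout alone on 1 of 3 probe sets, at 769 in the knockout and 583 in the wild type. The part of these cell types in the ratios of the members was not tested.

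**Figure D4:**
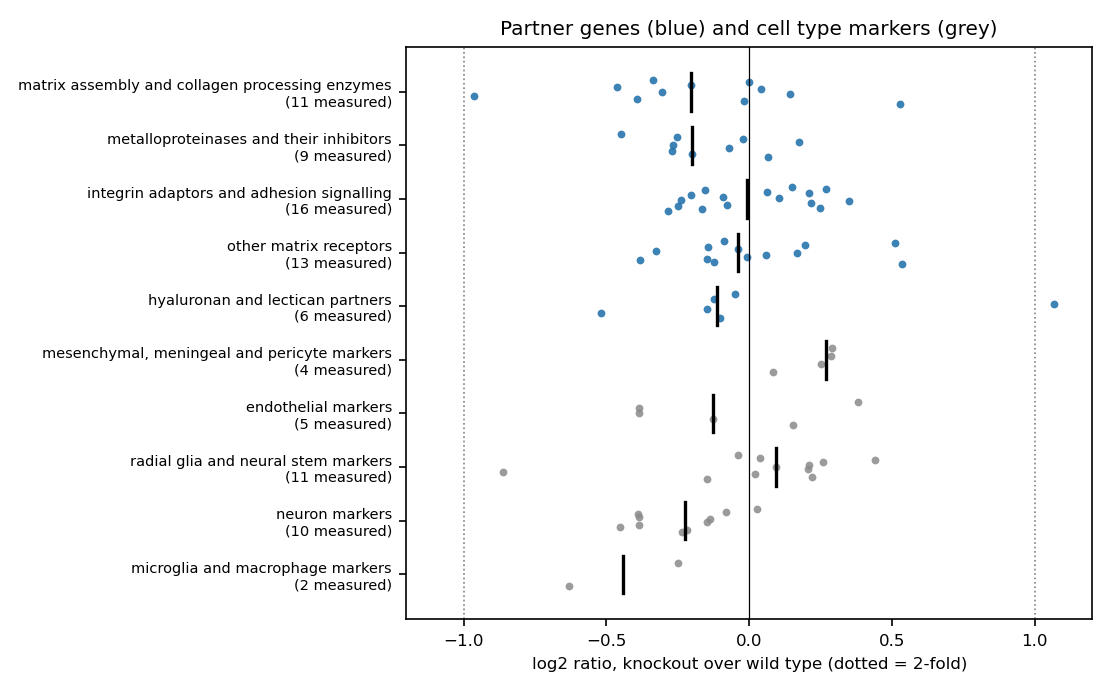
The knockout over wild-type log2 ratio (x axis) of each measured gene of the 5 partner lists (blue) and 5 marker lists (grey), with the list median as a black bar and 2-fold marked by dotted lines. Hapln4 at 1.07 is the 1 gene past 2-fold, neuron markers lie mostly left of 0 and the means of the 4 measured mesenchymal markers right of it. Of all measured genes, 0.531% were at least 2-fold higher and 0.482% lower.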

How the data were processed

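Total RNA, prepared on RNeasy columns and not amplified per the labels' protocols, was labelled as biotinylated cRNA and hybridised to 4 arrays. The deposited values are MAS5 signal intensity on a linear scale, per the submitters' processing notes, with no version given there. Each array's mean after trimming 2% at each end was close to 1500.2 or 1500.5, so the authors' scaling was alike. Precision is limited by the number of RNA samples, 1 per genotype. The instrument records give 1 hybridisation day for both arrays of a design, and another day for the other design.

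Control probe sets, 64 per design, were not used. Log2 ratios were centred on the median of the measured probe sets. For a probe set above the floor in 1 sample alone, the ratio of its brighter signal to the floor was given as a bound. Names came from the platform annotation, and all 88 members had their identifier in a RefSeq table (GRCm38.p6), which changed no symbol. Members, roles, partner lists and markers were chosen with earlier results of these data known. Signals were given for members past 2-fold or bounded there and, per role, for the 3 farthest from 0 and the brightest, and for other members after their values were seen. In the other lists, genes past 2-fold or else the 3 farthest were named. Alternatives were other floors (30th or 70th percentile, none, or a pseudocount), other scalings (none, quantile, or lowess with a span of 0.3), other ways to combine probe sets, and each design alone. The procedure was tested on simulated data. The work was done in Python 3.11.15 with pandas 2.3.3, numpy 2.4.6, statsmodels 0.14.6 and matplotlib 3.10.9.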

Additional observations from a re-analysis of the deposited data

How the results depend on the processing

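With 1 sample per genotype no replicate could be left out. No paired analysis was possible because each genotype has 1 sample and the labels carry no replicate numbers. A list median counted as moved where it shifted by more than the SD between probe sets of a gene over the square root of the list's size. No centring, quantile normalization and lowess moved no list median, no 2-fold count and none of the 35 single genes. With the floor at the 30th percentile, 62 members were measured, 2 were 2-fold higher (3.23%, against 1.62% of all genes) and 0 lower (against 1.86%), the integrin median was 0.0599 and that of the collagen processing enzymes -0.0125, and with the floor at the 70th percentile the enzymes were at 0.00189. With no floor, all 88 members were read, 10 at least 2-fold higher (11.4%, against 8.99% of all genes) and 7 lower (7.95%, against 8.5%), with medians of 0.12 for all members, 0.41 for laminins, -0.00602 for the enzymes and 0.0552 for other matrix receptors. With a pseudocount the enzymes were at -0.0256 and the metalloproteinases at -0.0489. The enzyme median was -0.0874 when each gene was read by its brightest probe set and -0.31 without probe sets named _x_at, _s_at or _a_at. On MOE430A alone the metalloproteinases were at -0.0206. On MOE430B alone the medians were 0.0796 for 11 members, 0.13 for the other matrix genes, 0.53 for the 1 enzyme measured there, -0.16 for integrin adaptors, -0.33 for other matrix receptors and 0.47 for 2 lectican partners. The cause of these shifts beyond the change in genes measured was not tested. The all-member median was negative in 8 of 12 alternatives and the integrin median in 9 of 11. Of single members, Itga5 stayed below 0 in 9 of 9 alternatives (-0.72 to -0.25) and Col22a1 above 0 in 9 of 9 (0.13 to 0.62), while Fn1 did so in 8 of 10 (-0.38 to 0.40), Col6a4 kept its sign in 7 of 9 and Col9a1 in 6 of 8. In most alternatives Itga5 and Col22a1 were each read by the same single probe set as before, so a kept sign there says little. Neither gene was measured with the floor at the 70th percentile. Leaving out the integrin-binding proteins, a choice made after seeing the data, moved neither the median nor the 2-fold counts of the members.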

Other observations

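Probe sets below the floor gave uneven readings for some members, and no ratio is taken from them. The 4 dim probe sets of Itgb1 read between 61 and 175 in the knockout and between 19 and 166 in the wild type. Tnc read 388 in the knockout and 22 in the wild type on MOE430B, and 337 in the knockout and 376 in the wild type on MOE430A. Nid2 read 343 in the knockout and 207 in the wild type on its 1 probe set. Col12a1, a collagen that bridges fibrils, read 945 in the knockout and 175 in the wild type on MOE430A, at least 1.29-fold higher. Its 3 probe sets on MOE430B were below the floor, and on 1 of these it read 511 in the knockout and 139 in the wild type.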
